A study of Mus musculus with 2 samples.

Results

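The cells described here are macrophages of PyMT-N mammary tumours in which neither Ctsk (cathepsin K) nor Mmp12 (a macrophage elastase) was detected. The members were chosen by measured values, namely the PyMT-N counts of unique molecular identifiers (UMIs), which stand for single captured transcripts. A member had at least 200 detected genes and at most 10% mitochondrial UMIs. It had at least 20 UMIs of C1qa, C1qb and C1qc per 10000, under 50 of S100a8 and S100a9 per 10000, no Cd3d, Cd3e or Cd3g, and under 3 UMIs of Mki67, Top2a, Birc5 and Cdk1 together. The last condition was 0 UMIs of Ctsk and Mmp12. In all, 475 cells met it, which is 9.46% of the 5020 PyMT-N barcodes, out of 12496 barcodes in the series. The other 91 PyMT-N macrophages had at least 1 UMI of either gene and are called positive. The same conditions gave 4968 negative macrophages in PyMT-M.

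Tumours of both lines, PyMT-M and PyMT-N, were grown from tumour cell lines injected into the mammary gland of mice and taken 4 weeks later, at 0.7 to 1 cm across, and the meaning of M and N is not stated. PyMT refers to the polyoma middle T oncogene, which models breast cancer in mice, and each line is the only source of its library. Living (DAPI-) CD45+ cells were sorted and read from the 5′ end of the transcripts, with 1 library per line, and the strain, age and number of animals are not stated. No test between lines is therefore possible, the intervals given (95%) cover counting error and nothing else, and line, tumour and library cannot be told apart.

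Tumour macrophages come from blood monocytes, which carry Ly6c2 and Ccr2 and lose them as they mature, and from cells that settled in the tissue earlier. C1q is the recognition part of the first complement component, and macrophages are its main source. Low oxygen stabilises the factor HIF-1, which switches on glycolytic enzymes and glucose uptake, while interferons switch on antiviral genes. Interleukin 4 acts through STAT6 and is the classical inducer of Retnla and Arg1 in mouse macrophages.

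The members held 2244115 UMIs, with a median of 4135 UMIs and 1431 genes per cell, against medians of 5557 UMIs in the positive cells and 4904 in PyMT-M negative macrophages. Of the barcodes, 60 occurred in both libraries, 3 of them among the members and 45 among the PyMT-M cells. Neutrophils were common in the PyMT-N library, where 2281 cells had S100a8 and S100a9 at 200 or more per 10000 and little C1q. An S100a8 or S100a9 UMI was seen in 20% of members and in 0.322% of PyMT-M negative macrophages.

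Markers that the rule did not use were those of macrophages. Lgmn, a lysosomal protease, had a UMI in 94.9% of members, compared with 6.49% of PyMT-N neutrophils and 5.41% of PyMT-N T cells, whose median depths were 1881 and 3099.5 UMIs. With each cell thinned to 2000 UMIs these shares were 86.9%, 5.78% and 3.73%. The 9 macrophage markers outside the rule were all detected and summed to 130 per 10000 in members, 34.7 in the PyMT-N monocyte gate and 5.24 in PyMT-N neutrophils, with Csf1r (the receptor for macrophage growth factor) at 520 CPM (UMIs per 1000000 UMIs of the group) and Adgre1 (F4/80) at 188 CPM. The monocyte gate is a set of 332 cells with low C1q and at least 2 UMIs of Ly6c2 and Ccr2. The 5 other monocyte markers summed to 3.73 per 10000 in members and 27.7 in that gate. The 6 neutrophil markers besides S100a8 and S100a9 summed to 1.30 per 10000 in members and 124 in PyMT-N neutrophils. Retnlg, a neutrophil gene outside the rule, stood at 1.34 CPM in members and 4511 CPM in neutrophils. Natural killer cell markers summed to 0.00891 per 10000 in members and 2.89 in PyMT-M negative macrophages, and epithelial markers to 0.169 and 7.78.

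Absence of Ctsk said little about these cells, because the division was made almost wholly by Mmp12. Of the 91 positive cells 89 carried Mmp12 and 2 carried Ctsk, and 30 of the 31 Ctsk UMIs came from 1 cell. In the whole PyMT-N library 96.5% of the 930 Ctsk UMIs lay in 18 cells below the C1q threshold. The negative share of macrophages was 83.9% in PyMT-N (interval 80.6 to 86.9%) and 98.9% in PyMT-M (98.6 to 99.2%). After thinning to 2000 UMIs the shares were 87.1% and 99.5%.

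Neither threshold marked off cells that lacked the genes of the other side, although the groups of cells beside the thresholds were small. The 22 members with 20 to 30 C1q UMIs per 10000 had Ly6c2 at 162 CPM and Plac8 at 464 CPM. The 31 otherwise eligible cells with 10 to 20 per 10000 had these monocyte genes at 880 and 1343 CPM. Of the positive cells 30 had exactly 1 UMI of the pair. Gpnmb, a glycoprotein of lipid-laden macrophages, was at 20.5 CPM in members, 55.4 CPM in these 30 cells and 219 CPM in the 61 cells with more.

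The members were not uniform, and grouping them by their own expression gave 4 clusters, here numbered by size and described by leading genes without a cell type name. Cluster 1 held 168 cells (35.4%), cluster 2 held 151 (31.8%), cluster 3 held 86 (18.1%) and cluster 4 held 70 (14.7%). The genes that define the clusters were used to form them, so their values are a description. Depth differed too, with median UMIs of 2136, 5913, 4101 and 5798. Asking for finer division gave 9 clusters.

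**Figure D1:**
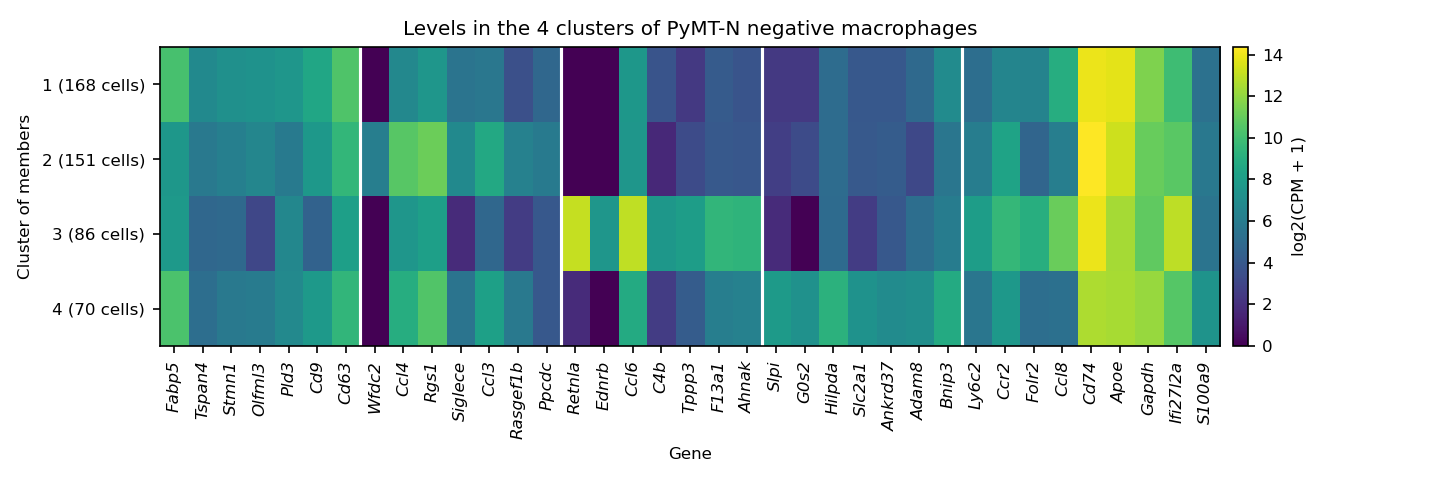
Levels, as log2(CPM + 1), of leading and selected genes (columns) in the 4 clusters of PyMT-N negative macrophages (rows), with white lines between the gene groups of clusters 1 to 4 and a last group of other genes. Retnla and Ednrb are bright in cluster 3 alone, Hilpda and Slc2a1 are brightest in cluster 4, and Cd74 is lowest there.

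Cluster 3 carried nearly all Retnla, which encodes the secreted protein RELM-alpha. Members held 3656 Retnla UMIs in 55 cells, of which 3655 lay in cluster 3, so its level was 8812 CPM there and 0, 0 and 2.42 CPM in clusters 1, 2 and 4. The chemokine gene Ccl6 had 88.2% of its UMIs in cluster 3, and F13a1, a clotting factor subunit of tissue macrophages, stood at 706 CPM against 15 to 70.1 CPM elsewhere. Genes of long-settled macrophages were also high in it: Folr2, a folate receptor, had 73.3% of its UMIs there, Ccl8, a chemokine, 73.8%, and Cbr2, a carbonyl reductase, 78.2%. Ly6c2 and Ccr2 were highest in the same cluster, at 251 and 752 CPM.

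The finer division split the Retnla-rich cluster between groups with different first leading genes, although Retnla was among the leading genes of both. Whether Ly6c2 and Ccr2 differed between these groups was not tested. One group of 51 cells was led by Fn1 (fibronectin, 1320 CPM), Ahnak and S100a6 (3527 CPM). The other, of 36 cells, was led by Ccl8 (6619 CPM), Cbr2 (1409 CPM), Folr2 (1295 CPM) and Clec10a, a lectin (419 CPM). Retnla stood at 6958 CPM in the Fn1-led group and 12378 CPM in the Ccl8-led group. Median depths of the groups were 5444 and 2584 UMIs.

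Cluster 4 was led by Slpi (a protease inhibitor), G0s2 (an inhibitor of fat breakdown) and genes of the low-oxygen response. Hilpda, a lipid droplet protein, had 80.6% of its 309 UMIs there and stood at 602 CPM, against 31.3 to 33.2 CPM in the other clusters. Slc2a1, the glucose transporter GLUT1, stood at 157 CPM against 4.82 to 15 CPM, and Bnip3, a mitophagy receptor, at 437 CPM against 49.3 to 122 CPM. Over the 29 genes of the hypoxia and glycolysis list the sum was 165 per 10000 in cluster 4 and 83.0, 60.8 and 57.1 in clusters 1 to 3. The 10 genes of MHC class II, which present peptides to helper T cells, ran the other way, with sums of 117 in cluster 4 and 289, 406 and 285 in clusters 1 to 3.

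Neutrophil RNA moved with cluster 4. Its 8 neutrophil markers summed to 5.68 per 10000 against 1.25 to 1.83 elsewhere, and 31.4% of its cells had an S100a8 or S100a9 UMI. Without S100a8 and S100a9, which the rule limited, the sums were 3.24 against 0.675 to 1.01. Slpi and G0s2 are abundant in neutrophils, at 2687 and 2764 CPM, and the 73 G0s2 UMIs of the members came from 8 cells. In the finer division 14 of the 70 cells went to a group led by G0s2, Slpi and S100a9, and 54 to a group led by Hilpda (629 CPM) and Slc2a1 (167 CPM), in which 20.4% of cells had an S100 UMI. The part of neutrophil RNA in the Hilpda level was not tested.

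Cluster 2 held most UMIs of the chemokine genes Ccl3 (71.2%) and Ccl4, while Ccl2 (55.3%) and Ccl7 (67.1%) lay mostly in cluster 3 and Cxcl2 (50.9%) in cluster 4. The 22 cytokine and chemokine genes summed to 62.6 per 10000 in cluster 2 and 154 in cluster 3. Ccl4 had 81.7% of its 1799 UMIs in cluster 2, with levels of 1575 CPM there and 104, 188 and 488 CPM in clusters 1, 3 and 4. Rgs1, a brake on G protein signalling, stood at 2264 CPM in cluster 2. The first leading gene of cluster 2, Wfdc2, rested on 1 cell that held 63 of the 64 UMIs and marks no group. Cluster 1 was led by Fabp5, a fatty acid binding protein (1151 CPM), and the tetraspanins Tspan4, Cd9 (364 CPM) and Cd63 (1350 CPM), and it had the highest Apoe (14178 CPM) and the lowest monocyte marker sum (1.80 per 10000).

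Interferon genes also differed among the clusters. The type I interferon list summed to 157 per 10000 in cluster 3 and to 23.6, 34.1 and 36.5 in clusters 1, 2 and 4. Ifi27l2a, an interferon-induced mitochondrial protein, gave much of it, at 7925 CPM in cluster 3, and Irf7, a transcription factor of the same response, stood at 460 CPM against 49.7 to 125 CPM.

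Promoter sequences are shown for 4 genes whose levels these descriptions turn on: a pair from the hypoxia list, the leading gene of cluster 3 and an interferon gene that was low in members. Each runs 5′ to 3′ on the gene's strand and ends at the transcription start of RefSeq, or before it where a GENCODE exon covers the last bases, on build GRCm38.p6. Capitals mark the core of the hypoxia response element (ACGTG) in Bnip3 (chr7:138909520-138909756, minus strand) and Pgk1 (chrX:106186850-106187099, plus strand). They mark a STAT-type repeat (TTC and GAA with any 4 bases between) in Retnla (chr16:48842359-48842550, plus strand) and an interferon response repeat (GAAA and GAAA with any 2 bases between, here on the reverse strand) in Ifit3 (chr19:34583279-34583528, plus strand).
Bnip3: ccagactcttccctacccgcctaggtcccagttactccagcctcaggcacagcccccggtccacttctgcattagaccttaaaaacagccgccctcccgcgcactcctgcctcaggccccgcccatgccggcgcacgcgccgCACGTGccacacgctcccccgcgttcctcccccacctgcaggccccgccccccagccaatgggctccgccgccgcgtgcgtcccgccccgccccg
Pgk1: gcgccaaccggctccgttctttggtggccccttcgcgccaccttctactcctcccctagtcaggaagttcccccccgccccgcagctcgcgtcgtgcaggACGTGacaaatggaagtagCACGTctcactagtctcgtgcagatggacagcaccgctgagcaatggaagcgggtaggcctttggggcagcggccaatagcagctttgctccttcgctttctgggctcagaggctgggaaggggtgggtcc
Retnla: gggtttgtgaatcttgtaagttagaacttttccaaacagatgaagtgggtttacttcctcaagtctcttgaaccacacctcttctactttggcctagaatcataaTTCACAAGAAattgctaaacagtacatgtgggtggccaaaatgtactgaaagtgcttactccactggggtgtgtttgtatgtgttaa
Ifit3: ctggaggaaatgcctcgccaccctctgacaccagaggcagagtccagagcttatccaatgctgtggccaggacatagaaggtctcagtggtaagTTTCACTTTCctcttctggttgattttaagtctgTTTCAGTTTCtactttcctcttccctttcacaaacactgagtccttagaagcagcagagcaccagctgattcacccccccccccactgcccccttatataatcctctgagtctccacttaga

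Both strands of the 250 bases upstream were searched in 27025 genes. ACGTG, which also lies inside the E-box CACGTG as it does in Bnip3, was found in 16.6% of all genes, in 10 of 26 hypoxia list genes (38.5%) and in 4 of 7 leading genes of cluster 4. These sets overlap, because the leading genes Hilpda, Slc2a1, Ankrd37, Bnip3 and Ero1l are also on the hypoxia list. The interferon response repeat was found in 3.04% of all genes and in 13 of 29 type I interferon genes (44.8%). The STAT-type repeat was found in 5.86% of all genes and, among 5 leading genes of cluster 3, in Retnla. A match is a string of letters and shows no binding.

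Against the 91 positive cells of the same tumours, members had more RNA of settled-macrophage and monocyte genes and less of low-oxygen genes. Both groups are cells of 1 library, so the comparison describes that library. Ratios below are log2 of CPM with a pseudocount of 1 CPM, a gene needed 20 UMIs over both groups, and a gene is counted past 2-fold. Intervals of log2 ratios were computed without the pseudocount. Of 7765 genes, 648 were at least 2-fold higher in members (8.35%) and 232 at least 2-fold lower (2.99%), with a median of 0.16 over all genes. The positive group holds 523765 UMIs in all, so its low levels are less precise.

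Every one of the 29 hypoxia and glycolysis genes was lower in members than in positive cells, 17 of them at least 2-fold, with a median of -1.12. Hilpda stood at 138 CPM in members and 705 CPM in positive cells (log2 ratio -2.35, interval -2.58 to -2.13). Vegfa, the vessel growth factor, stood at 26.3 and 153 CPM (-2.49), Adm, the vasodilator adrenomedullin, at 4.01 and 42.0 CPM (-3.10), and Ankrd37 at 35.2 and 122 CPM (-1.77). Bnip3 (-1.60) and Mxi1, a MYC antagonist (-1.66), were lower as well. In cells thinned to 2000 UMIs Hilpda was seen in 12.8% of members and 49.3% of positive cells. It was also seen in 44.8% of PyMT-N neutrophils and 19.3% of PyMT-N T cells, both above the members' share. How much of the members' Hilpda came from RNA of other cells was not tested.

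Part of the genes of lipid-laden macrophages were lower in members too. Of 19 measured genes of the lipid-associated list 6 were at least 2-fold lower and none at least 2-fold higher. Gpnmb stood at 20.5 and 168 CPM (-2.97, interval -3.58 to -2.50), Fabp5 at 605 and 1579 CPM (-1.38) and Spp1, osteopontin, at 278 and 565 CPM (-1.02). Matrix genes were divided: of 13 measured, 4 were at least 2-fold lower and 1, Fn1, at least 2-fold higher, with a median of -0.14. Mmp13, a collagenase, stood at 40.6 and 239 CPM (-2.53), and Adam8, a surface metalloprotease, at 41.4 and 166 CPM (-1.98). Other genes named by the rule on this side were Rilpl2 (-1.82), Gpr137b (-1.81), Gdf15, a stress cytokine (-1.77), and the heat shock gene Hspa1a (-1.65). The iron stores Fth1 and Ftl1 and the haem-degrading enzyme Hmox1 were at -0.98, -0.70 and -1.40. The lysosome list stayed within 2-fold for all 20 genes.

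On the other side 8 of 18 measured settled-macrophage genes and 6 of 11 monocyte genes were at least 2-fold higher in members, with list medians of 0.76 and 1.13. Retnla stood at 1629 CPM in members and 225 CPM in positive cells (log2 ratio 2.85, interval 2.59 to 3.13). Its UMIs lay in 55 of 475 members and in only 2 of 91 positive cells, and Ccl8 lay in 8 positive cells. The intervals treat UMIs as independent and do not cover this unevenness between cells. Ccl24, an eosinophil-attracting chemokine, had 190 UMIs in members and 1 in positive cells (4.88, interval 2.98 to 10.8). Folr2 (1.63), Cbr2 (1.93), Ccl8 (1.45) and Mrc1, the mannose receptor (1.16), were higher, as were Ly6c2 (2.33), Plac8 (1.33), Ccr2 (1.22) and Fn1 (1.79). The rule also named Tppp3 (2.40), Tspan32 (2.28), Igfbp4 (2.21), Ly6a (2.03), Lbh (1.5) and the chemokine Ccl9 (1.33).

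UMIs of several of these genes lay mostly in cluster 3, which such genes helped to form. Leaving its 86 cells out of the members, with all 91 positive cells kept, lowers such ratios by construction. The values therefore describe only where the UMIs lay. Then 1 settled-macrophage gene and 2 monocyte genes were at least 2-fold higher. Retnla stood at -7.19, and Tppp3, Ccl8 and Ccl9 were at -0.04, -0.18 and -0.62. Removing cells with a Ly6c2 or Ccr2 UMI from both groups left 1 monocyte gene past 2-fold. Both genes are on the monocyte list, so part of this fall was fixed by the removal. Of the 29 hypoxia genes 15 were still at least 2-fold lower without cluster 3. The 6 neutrophil markers outside the rule summed to 1.30 per 10000 in members and 1.01 in positive cells. With S100a8 and S100a9, which the rule limited in both groups, the sums were 2.33 and 2.16.

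**Figure D2:**
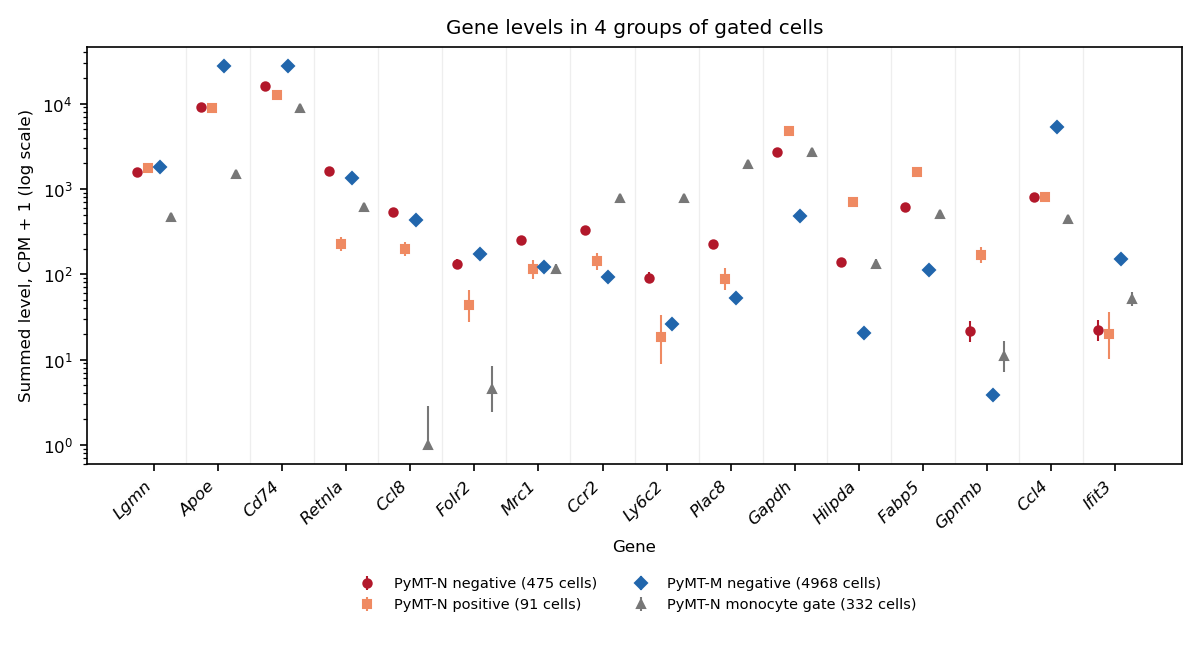
Summed level (CPM + 1, log axis) of 16 genes in PyMT-N negative, PyMT-N positive and PyMT-M negative macrophages and in the PyMT-N monocyte gate, with 95% counting intervals, many of them smaller than the symbol. Retnla, Folr2 and Ly6c2 lie higher in negative than in positive PyMT-N cells, while Hilpda, Fabp5 and Gpnmb lie lower.

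Antigen presentation differed less. MHC class II summed to 305 per 10000 in members and 245 in positive cells, with 0 of 10 genes past 2-fold in either direction. A replication list of 14 genes also holds the tubulin genes Tubb5 and Tuba1b, the tubulin regulator Stmn1 and the histone gene H2afz. Of these 14 genes 6 were at least 2-fold higher in members, and other settings gave from 1 to 9. Stmn1 had the largest ratio (77.1 and 32.5 CPM), with 17 UMIs in positive cells. The rule removed cells with 3 or more UMIs of 4 proliferation genes from both groups. This limit is not scaled to depth, and median depth was 4135 UMIs in members and 5557 in positive cells. Its part in the replication counts was not tested.

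Between the lines, members had lower lysosomal enzymes and interferon genes than PyMT-M negative macrophages, and higher hypoxia, glycolysis and monocyte genes. Of 11869 genes, 382 were at least 2-fold higher in members (3.22%) and 1277 at least 2-fold lower (10.8%). The median over all genes was -0.20, and centring the ratios on the median of genes with 100 UMIs gave 633 higher and 836 lower. C1q itself, which the rule used, was lower in members, at a median of 117 per 10000 against 287.

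Many of the same differences were present in other gated cells of the 2 libraries. The T cell gate compared 222 PyMT-N with 760 PyMT-M cells, and 6.3% of 9352 genes were at least 2-fold higher and 9.33% at least 2-fold lower in PyMT-N. This gate set no limit on S100a8 and S100a9. The 8 neutrophil markers summed to 74.8 per 10000 in its PyMT-N cells and 3.17 in its PyMT-M cells. MHC class II genes summed to 22.6 and 4.62. Ratios of the T cell gate therefore compare unlike mixtures of RNA. The monocyte gate compared 332 with 349 cells, and 3.43% of 8779 genes were at least 2-fold higher and 8.34% lower. Natural killer cell markers summed to 0.877 per 10000 in its PyMT-N cells and 30.7 in its PyMT-M cells. The 5 monocyte markers besides Ly6c2 and Ccr2 summed to 27.7 and 14.6. Ratios of the monocyte gate, given below as those of monocytes, therefore also compare unlike mixtures. List counts of both gates, and ratios for part of the genes, are given below. Their part in the macrophage differences was not tested.

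**Figure D3:**
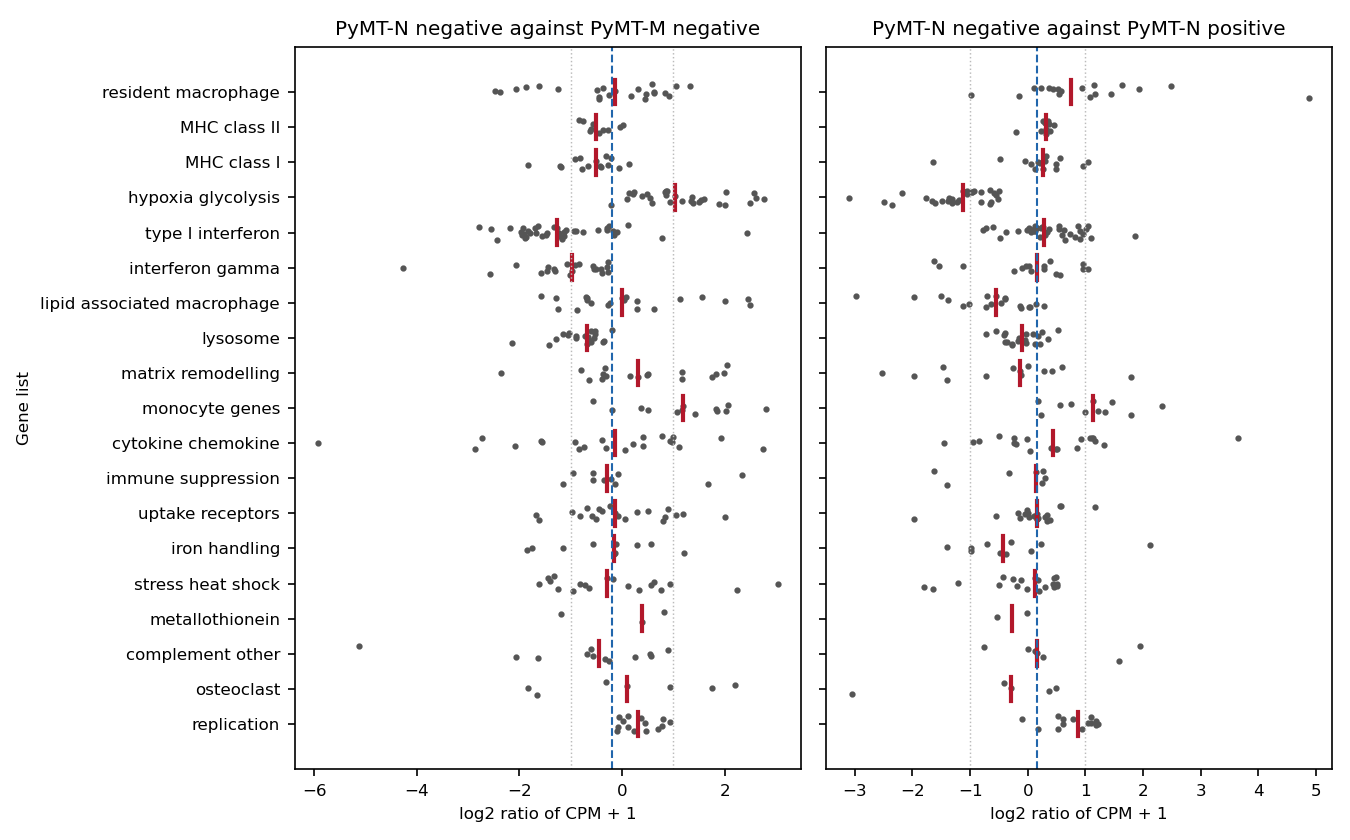
Log2 ratio of CPM + 1 for the measured genes (points) of 19 gene lists, with the list median (red line), the median of all genes (blue dashes) and 2-fold (dotted lines), for PyMT-N negative macrophages against PyMT-M negative macrophages (left) and against PyMT-N positive macrophages (right). The hypoxia and glycolysis list lies above 0 on the left, with a median of 1.03, and below 0 on the right, with a median of -1.12.

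Of the 29 hypoxia and glycolysis genes 15 were at least 2-fold higher in members than in PyMT-M macrophages and none at least 2-fold lower, with a median of 1.03. The list was also higher in the PyMT-N T cell gate (12 of 27 genes, median 0.84), which held neutrophil marker RNA, and in the monocyte gate (10 of 28 genes, median 0.69). Gapdh, a glycolytic enzyme, stood at 2727 and 486 CPM in macrophages (log2 ratio 2.49), with ratios of 2.05 in T cells and 1.97 in monocytes. Hilpda stood at 138 and 19.5 CPM (2.76), with 1.91 in both other gates, and Bnip3 at 139 and 36.7 CPM (1.90), with 3.35 and 2.09. Pgk1, the promoter of which is shown above, stood at 326 and 127 CPM (1.36), with 0.65 and 0.87. When the T cell ratio was subtracted gene by gene 2 genes remained past 2-fold, and with the monocyte ratio 3. With cluster 4, which was high in these genes, left out of the members only, the count was 6.

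The genes that headed the higher side showed the same pattern. S100a4, a calcium-binding protein, stood at 193 and 26.9 CPM (2.80), against 3.42 in T cells and 1.80 in monocytes. Sys1, a Golgi protein (2.66), had ratios of 2.40 and 3.24, and Tomm6, of the mitochondrial import pore (2.11), had 2.10 and 1.60. Nme1, a nucleotide kinase (2.65), Erh (2.60), the splicing protein Snrpg (2.37) and the RNA polymerase subunit Polr2l (2.31) had T cell ratios of 2.33, 2.01, 1.61 and 1.43. Fabp5 stood at 605 and 110 CPM (2.45), against 2.52 and 2.11, and Hspa1a at 65.1 and 13 CPM (2.24), against 4.64 and 1.75. Gapdh has many near-identical pseudogenes, Nme1 has a close paralogue and Hspa1a a near-identical copy, so their counts depend on the handling of reads with several matches, on which the sources used here say nothing.

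Arg1 and Cd93 had lower ratios in the monocyte gate than in macrophages. Arg1, the arginine-consuming enzyme arginase 1, stood at 73.1 CPM in members and 13.7 CPM in PyMT-M macrophages (2.34, interval 2.15 to 2.69), with a monocyte ratio of 0.67 and only 3 and 2 UMIs in the T cell gates. Its 164 UMIs lay in 34 members, 61.0% of them in cluster 3 and 34.1% in cluster 4. The Arg1 ratio was 1.30 with cluster 3 left out of the members only and 0.86 among cells with 20 to 200 C1q UMIs per 10000. Thinned to 2000 UMIs, 5.56% of members and 0.797% of PyMT-M macrophages had an Arg1 UMI, against 0.621% and 0.139% of the T cells of each library. Cd93, a lectin-like surface protein, stood at 103 and 22.4 CPM (2.16), with a monocyte ratio of 0.75.

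Monocyte genes were higher in members for 9 of 13 genes at 2-fold, with a median of 1.18, against 5 of 11 in T cells and 3 of 13 in monocytes. Ccr2, the receptor that draws monocytes into tissue, stood at 332 and 90.5 CPM (1.86), Plac8 at 223 and 52.2 CPM (2.07) and Ly6c2 at 90.5 and 24.7 CPM (1.83). Monocyte gate ratios of the 3 genes were 0.30, 1.31 and 1.03. In thinned cells Ccr2 was seen in 35% of members and 10.1% of PyMT-M macrophages, with 19.3% and 11.4% in T cells, many of which express it. The difference moved with the amount of C1q. Among cells with 20 to 200 C1q UMIs per 10000, which left 383 PyMT-N and 913 PyMT-M cells, 1 monocyte gene was past 2-fold and the median was -0.29.

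Of 39 measured type I interferon genes 26 were at least 2-fold lower in members and 1 at least 2-fold higher, with a median of -1.26. In T cells 25 of 36 were lower (median -1.23), while in monocytes 2 of 39 were (median 0.19). Ifit3, which blocks viral RNA, stood at 20.9 CPM in members and 151 CPM in PyMT-M macrophages (-2.80, interval -3.30 to -2.44), with -2.34 in T cells and 0.57 in monocytes. Thinned shares of cells with Ifit3 were 2.22% and 16.0%. Isg15, a ubiquitin-like protein, stood at 103 and 475 CPM (-2.19). Ifi27l2a ran against the list at 0.78, and Slfn4 was higher at 2.44. With C1q between 20 and 200 per 10000 the lower count was 19. Interferon gamma genes were at least 2-fold lower for 10 of 21, with Cxcl9, a T cell attracting chemokine, at 2.67 and 70.2 CPM (-4.28). In T cells 12 of 18 were lower and in monocytes 4 of 19. With cluster 3, the highest in type I interferon genes, left out of the members only, their lower count was 33.

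Lysosome genes were lower in macrophages, while their medians in the other gates were above 0. All 20 genes were below 0 and 6 were at least 2-fold lower, with a median of -0.68. In T cells the median was 0.08 and in monocytes 0.27, with 0 genes at least 2-fold lower in either. Ctss, the protease that trims the MHC class II chaperone, stood at 2135 and 5744 CPM (-1.43), and Ctsd, another lysosomal protease, at 773 and 1888 CPM (-1.29). T cell and monocyte ratios were 0.57 and 0.52 for Ctss and -0.97 and -0.39 for Ctsd. Centring the ratios left 3 lysosome genes at least 2-fold lower, as did removing cells with Ly6c2 or Ccr2. This difference moved with C1q as well: 1 gene remained past 2-fold, with a median of -0.32, in cells of 20 to 200 C1q UMIs per 10000. Apoe, a lipid carrier, stood at 9206 and 27380 CPM (-1.57). MHC class II genes were lower within 2-fold, with 9 of 10 below 0 and a median of -0.51.

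Of 22 cytokine and chemokine genes 6 were at least 2-fold lower in members and 4 at least 2-fold higher, with a median of -0.13 beside -0.20 over all genes. On the higher side were the chemokine genes Ccl7 (459 and 212 CPM, 1.11), Cxcl2 (559 and 278 CPM, 1.00), Cxcl1 (1.93) and Cxcl3 (2.75), the last pair below 12 CPM in members, and T cell ratios of Ccl7 and Cxcl2 were 2.64 and 5.72. Ccl4 stood at 802 and 5309 CPM (-2.73), with -0.74 in T cells and -0.40 in monocytes, and Ccl3 at 240 and 1024 CPM (-2.09), with 0.47 and 0.00. Ccl4 was seen in 32.8% of thinned members and 66.0% of thinned PyMT-M macrophages. Tnf, the inflammatory cytokine, stood at 27.2 and 206 CPM (-2.88), with 0.28 and 0.16. Of 19 immediate early and heat shock genes 5 were at least 2-fold lower and 2, Hspa1a and Hspa1b, at least 2-fold higher, with a median of -0.29. Among the lower were Fos at -1.33, Junb at -1.45 and Zfp36, which destabilises Tnf RNA, at -1.62. In the T cell gate, which in PyMT-N held neutrophil marker RNA, Fos and Zfp36 ran the other way, at 1.53 and 1.96.

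Some receptor genes of PyMT-M macrophages were nearly absent from members, and further immune genes were lower. Klra17, a Ly49-family receptor, had 4 UMIs in members (1.78 CPM) and 6552 in PyMT-M macrophages (236 CPM), a log2 ratio of -6.41 (interval -8.93 to -5.69). H2-M2, a non-classical MHC class I gene (-4.81), and Fcrl5, an Fc receptor-like gene (-4.65), followed. Tnfsf13b, the B cell survival factor BAFF, stood at 15.2 and 119 CPM (-2.90) and Il18bp, which captures interleukin 18, at 34.3 and 237 CPM (-2.75). The rule also named Adamdec1 (-3.39), Gpr31b (-3.29), Camk2n1 (-3.03) and Asb2 (-2.77), of which Camk2n1 had -3.84 and Asb2 -2.09 in monocytes. Ccl5 was lower too (-5.94). PyMT-M negative macrophages also held Gzma, a lymphocyte protease, at 173 CPM, against 0.446 CPM in members. The part of lymphocyte RNA in the Ccl5 difference was not tested.

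**Figure D4:**
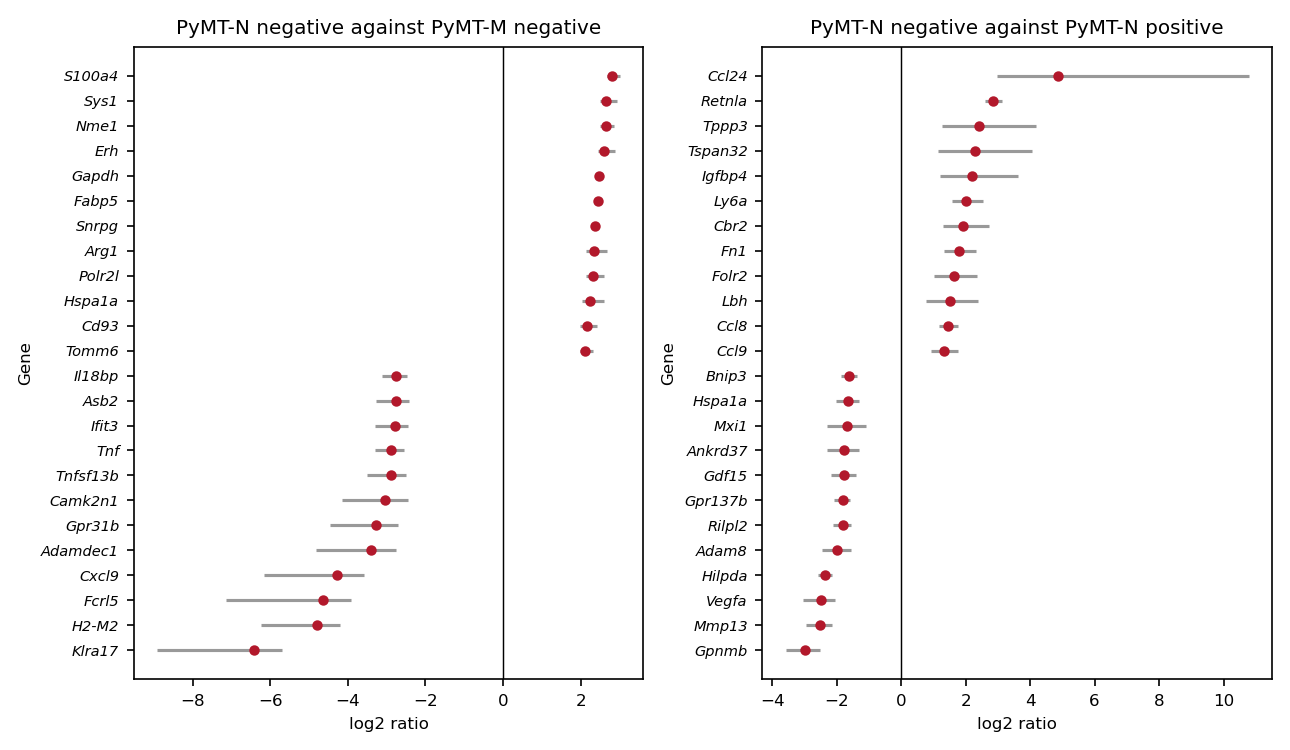
Log2 ratio of CPM + 1 (points) and 95% counting interval of the ratio without pseudocount (lines) for the genes named by rule, PyMT-N negative against PyMT-M negative macrophages (left) and against PyMT-N positive macrophages (right). Klra17 lies lowest on the left at -6.41, and Ccl24, with 1 UMI in positive cells, has the widest interval on the right.

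Settled-macrophage genes divided in this comparison. Of 23, 2 were at least 2-fold higher in members and 6 at least 2-fold lower. Pf4, platelet factor 4, stood at 646 and 258 CPM (1.32) and Mrc1 at 253 and 122 CPM (1.05), while Cd209f stood at 5.35 and 34.2 CPM (-2.47). Retnla, the gene that most set cluster 3 apart, was at 1629 and 1340 CPM (0.28). It was seen in 9.44% of thinned members (interval 6.63 to 12.9%) and 6.36% of PyMT-M macrophages (5.64 to 7.13%), against 0.621% and 0.837% of their T cells. Folr2 (-0.37) and Ccl8 (0.31) were also within 2-fold between lines. With cluster 3 left out of the members and no PyMT-M cells left out, 0 settled-macrophage genes were at least 2-fold higher and 13 at least 2-fold lower. Cluster 3 was high in such genes, so a shift in this direction follows from the removal.

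**Figure D5:**
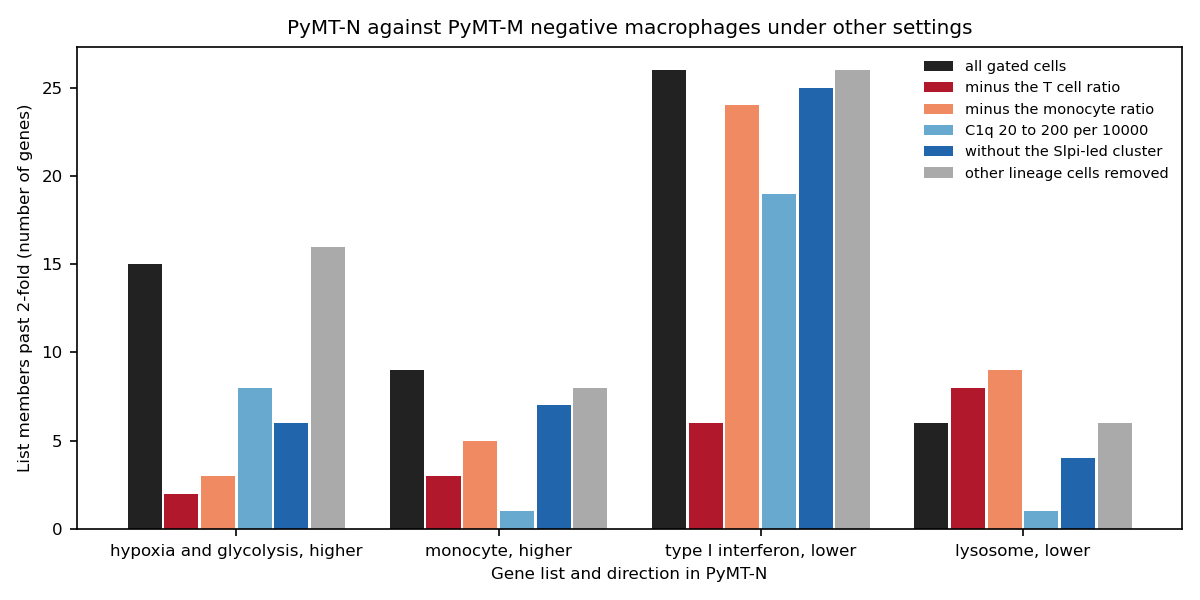
Number of list genes past 2-fold between PyMT-N and PyMT-M negative macrophages (bars) for all gated cells and under 5 other settings. The type I interferon count is 26 in all cells and 6 after subtracting the T cell ratio, while the lysosome count is 6 and 8.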

How the data were processed

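Each of 2 libraries was deposited by the authors as UMI counts, unnormalized, for every gene in every barcode, aligned to mm10 per the submitters' processing notes, with matrix software version 3.1.0 per the file headers. The notes also name Cell Ranger and Seurat, without versions, and the sources used here give no filters applied before deposit. The libraries held 14907736 (PyMT-N) and 43977988 (PyMT-M) UMIs.

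Cells were gated as described above and their counts summed per group. Levels are counts per 1000000 UMIs of the group (CPM), with exact Poisson intervals. Ratios are log2 of CPM with a pseudocount of 1 CPM and exact conditional binomial intervals, and shares have Clopper-Pearson intervals, all at 95%. For shares, cells were thinned to 2000 UMIs and shallower cells left out, which removed 115 of 475 members. The ratios and their intervals were tested on simulated summed counts, in which UMIs were independent. Gating, thinning and shares were not part of that test. With 1 library per line no test was made.

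Members were clustered on 1000 variable genes, 20 principal components and 15 neighbours with the Leiden method at resolution 0.5 (scanpy 1.11.5, leidenalg 0.10.2). Scrublet marked 0 doublets by its own threshold in either library and so had not worked. The highest scores, at 0.8% per 1000 barcodes, were removed only as an alternative. Named genes were up to 12 per direction with the largest ratio among genes with 100 UMIs, 50 CPM in the higher group, an interval beyond 1.5-fold and a level at least 0.5 of that in other cells of the library, plus members of each list. This ranking skipped predicted genes and those of haemoglobin, antigen receptors, ribosomes and mitochondria. The members, lists and rules were chosen with earlier results of these data known. Alternatives covered scaling, pseudocount, count minimum, weighting of cells, gates, doublets, depth and cluster resolution. Promoters came from RefSeq on GRCm38.p6, and exons from GENCODE on GRCm38. Python 3.11.15, numpy 2.4.6, scipy 1.17.1 and pandas 2.3.3 were used.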

Additional observations from a re-analysis of the deposited data

How the results depend on the processing

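No paired analysis was possible because each line has 1 library, and leaving out a replicate was not possible for the same reason. The cause of the shifts below was not tested unless the setting itself tests fewer genes or cells.

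Between lines, centring the ratios gave 633 genes higher, 836 lower and 3 lysosome genes lower. A pseudocount of 5 CPM gave 202 higher and 482 lower, a minimum of 100 UMIs gave 239 higher, and the mean of per-cell CPM gave 578 higher. Removing cells with Ly6c2 or Ccr2, which are themselves on the monocyte list, left 3 lysosome genes lower and 4 monocyte genes higher. Limiting C1q to 20 to 200 per 10000 gave 184 genes higher, with 8 hypoxia and 1 monocyte genes higher and 1 lysosome gene lower.

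Against positive cells, a pseudocount of 5 CPM gave 326 higher and 143 lower. A minimum of 100 UMIs gave 80 and 62, and one of 5 UMIs gave 1354 and 502. The mean of per-cell CPM gave 1049 higher and gating on thinned cells 1075. Removing cells with Ly6c2 or Ccr2, both on the monocyte list, left 1 monocyte gene higher.

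Further settings were chosen after seeing the data. Calling cells positive from 3 UMIs gave 1053 genes higher. Clusters 3 and 4 were each left out of the members only, which lowers the levels of their leading genes by construction. Without cluster 3, 1 settled-macrophage and 2 monocyte genes were higher than in positive cells, and Retnla (-7.19), Tppp3 (-0.035), Ccl8 (-0.18) and Ccl9 (-0.62) changed sign. Without cluster 4, 6 hypoxia genes were higher between lines. Subtracting the T cell ratio left 2 hypoxia and 3 monocyte genes higher and 6 type I interferon genes lower, with S100a4 at -0.62, Fabp5 at -0.076 and Hspa1a at -2.40. Subtracting the monocyte ratio gave 665 genes higher and 639 lower, with 3 hypoxia and 5 monocyte genes higher, Sys1 at -0.58 and Camk2n1 at 0.81.

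The share of higher genes among those past 2-fold was 23% between lines and 43.1% after centring, and 73.6% and 57.6% against positive cells. Negative shares on thinned cells were 87.1% and 99.5%, and resolution 1 gave 9 clusters. Without thinning, Retnla was seen in 7.45% of PyMT-M macrophages, Hilpda in 18.1% of members and 6.88% of PyMT-M macrophages, and Ccr2 in 42.1% and 15.3%. Among main results 218 other comparisons with an alternative stayed within the limits for no change and 41 moved.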

Other observations

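Immediate early and heat shock genes were uneven among the members. The list of 19 such genes summed to 29.8 per 10000 in cluster 1 and to 129, 121 and 121 in clusters 2, 3 and 4. Fos, an AP-1 subunit, stood at 151 CPM in cluster 1 and 2560 CPM in cluster 2, and Junb at 184 and 1485 CPM. Cluster 1 also had the lowest median depth, 2136 UMIs, and the highest median mitochondrial share, 3.40%, and the part of either in these levels was not tested.

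Ccl24 lay in 22 members, with 41.1% of its UMIs in cluster 3 and 56.3% in cluster 4, and 1 cell held 62 of the 190. It stood at 131 CPM in the PyMT-N monocyte gate, above the 84.7 CPM of members and the 60.6 CPM of PyMT-M macrophages.

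The 11 iron-handling genes summed to 421 per 10000 in members, 753 in positive cells and 318 in PyMT-M macrophages. Fth1, the ferritin heavy chain, gave much of this, at 19682, 38882 and 16110 CPM, and it stood at 38329 CPM in PyMT-N neutrophils.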
